A study of Rattus norvegicus with 9 samples.

Results

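The genes described here encode components and receptors of the complement system and were taken as a fixed list: C1qa, C1qb, C1qc, C3, Cfb, Cfp, Serping1, C3ar1 and C5ar1. A probe set was counted only where its annotation carried exactly 1 gene symbol and that symbol was on the list. This gave 8 of the 9 listed genes on 9 of the 31099 probe sets of the array. Cfp, which encodes properdin, had 2 probe sets and the other 7 genes had 1 each. Cfb, the gene of complement factor B, stood only on 4 probe sets that also carry other symbols, C2 among them, and was not read.

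Complement is a cascade of plasma and locally made proteins that tags surfaces for uptake and releases small attractant peptides. C1q, built from an A, a B and a C chain, binds antibody, dying cells and some surfaces and starts the classical pathway through the proteases C1r and C1s, while properdin stabilises the alternative pathway enzyme that cleaves C3. Most C3 in plasma is made in the liver, whereas C1q is made largely by macrophages and related myeloid cells, which also carry the receptors for the C3a and C5a peptides.

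The series compared CD68+ cells of male Wistar rats in 3 conditions, with 3 Affymetrix Rat Genome 230 2.0 arrays each. Blood CD68+ cells were mononuclear cells from heparinized blood, selected with magnetic beads and not cultured. In vitro activated CD68+ cells were selected in the same way from blood and then kept for 3 days on PTFE coated with fibrinogen (FG), in medium with foetal bovine serum. FBR (foreign body reaction) CD68+ cells were released with collagenase and plasmin from the tissue deposited on photo-oxidized bovine pericardium after 3 days in the peritoneal cavity. Site, exposure and isolation therefore differ together between FBR and the other groups. Time in culture, PTFE, serum and FG likewise differ together between in vitro activated and blood cells, and no culture without FG was included. No group carried a transgene or a drug treatment. The labels call the 3 arrays of a group biological replicates without saying how many rats stand behind each, so the p values measure the spread between these arrays.

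Expression was read as linear MAS5 signals, and the trimmed mean of every array lay between 498.9 and 501.5 after lost decimal points had been restored. Differences are log2 fold changes of the signal plus 16, from limma over all 9 arrays with Benjamini-Hochberg adjustment over all probe sets, and a gene was called at an adjusted p under 0.05. The summed signal of 6 monocyte and macrophage markers was 9443 to 33838 in blood, 47913 to 60484 in vitro and 61052 to 76147 in FBR. The summed signal of 5 B cell markers was 35315 to 50418 in blood, against 557 to 2022 in vitro and 1227 to 1694 in FBR. Blood replicate 2 had the lowest macrophage marker sum and the highest NK cell marker sum, 5672 against 1640 and 2875 in the other blood arrays. In such bulk samples fewer cells of a type and less RNA per cell cannot be told apart. The part of cell composition in the differences below was not tested. The median of all probe sets was -0.17 (FBR against blood) and -0.24 (FBR against in vitro) as scaled, 0.00 and -0.05 after quantile normalization, and 0.20 and 0.10 after median centring. The share of called probe sets that were higher moved with it, from 35.3% to 47.6% and 56.9% for FBR against blood and from 34.7% to 48.3% and 62.2% for FBR against in vitro.

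The 3 chains of C1q are encoded side by side: in the RefSeq annotation C1qb, C1qc and C1qa follow each other on chromosome 5, between Ephb2 and Epha8. Promoter windows from RefSeq (build GRCr8), each running from 250 bases before the gene's start to 50 after it, were found for 5 of the 9 listed genes. The windows of C1qa and C1qb, whose signals moved together across the arrays, and of C3, the protein on which the pathways meet, are shown for comparison. They come from the minus strand at chr5:154419884-154420183, chr5:154407778-154408077 and chr9:2201290-2201589, are written 5′ to 3′ along the gene, and have matches to the searched motifs in capitals.
C1qa: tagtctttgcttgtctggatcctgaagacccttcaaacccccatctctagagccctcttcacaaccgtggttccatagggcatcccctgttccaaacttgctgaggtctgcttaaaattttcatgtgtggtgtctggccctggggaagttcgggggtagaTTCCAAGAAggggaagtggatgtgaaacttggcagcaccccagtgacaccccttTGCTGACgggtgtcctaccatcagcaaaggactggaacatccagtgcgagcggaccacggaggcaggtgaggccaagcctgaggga
C1qb: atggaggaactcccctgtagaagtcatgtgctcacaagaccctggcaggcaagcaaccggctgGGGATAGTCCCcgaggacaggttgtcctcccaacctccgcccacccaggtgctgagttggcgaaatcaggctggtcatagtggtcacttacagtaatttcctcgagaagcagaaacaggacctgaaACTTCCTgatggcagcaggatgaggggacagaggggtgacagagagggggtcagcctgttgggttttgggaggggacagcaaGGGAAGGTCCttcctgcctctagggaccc
C3: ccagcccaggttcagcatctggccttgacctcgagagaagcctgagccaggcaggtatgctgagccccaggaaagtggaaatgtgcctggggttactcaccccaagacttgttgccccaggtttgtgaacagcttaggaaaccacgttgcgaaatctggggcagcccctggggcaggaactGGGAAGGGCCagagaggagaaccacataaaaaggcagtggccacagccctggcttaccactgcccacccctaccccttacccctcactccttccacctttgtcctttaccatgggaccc

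Exact matches were searched on both strands for the NF-kB motif, PU.1 (AGGAAGT), the MAF site (TGCTGAC), the GAS element (TTCNNNGAA), the ISRE core and CEBP (TTGCGCAA or TTGCATCA). In the C1qa window the GAS letters stood at -90 to -82 from the start and the MAF site at -36 to -30. The C1qb window held the NF-kB letters at -187 to -178, overlapping a match on the other strand at -186 to -177, and again at 22 to 31, with the PU.1 letters on the other strand at -61 to -55. The C3 window held 1 match, to NF-kB at -69 to -60. The windows of C3ar1 and Cfp held no match. Over all 33469 promoter windows in the table, 19.3% held the NF-kB letters, 8.41% those of PU.1, 4.44% the MAF site, 8.87% GAS, 3.92% the ISRE core and 0.965% a CEBP form. The matches describe letters only, and nothing in these data bears on binding.

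All 3 C1q genes were higher in FBR CD68+ cells than in blood, and C1qb and C1qc were also higher than in the in vitro activated cells. The C1qa signal was 10.9, 271 and 663 in blood replicates 1 to 3, 2753, 1753 and 283 in vitro, and 8306, 8272 and 6839 in FBR. Every FBR array lay above every array of the other groups, whereas in vitro replicate 3 lay within the blood range. The difference from blood was 5.49 on the log2 scale (SE 1.09, adjusted p = 0.00336). The difference between FBR and in vitro activated cells was 2.78 (95% interval 0.36 to 5.20) and did not pass the test (adjusted p = 0.0949). It passed without blood replicate 1 (adjusted p = 0.0253), which leaves the estimate itself as it was, in a fit of the 6 compared arrays alone (adjusted p = 0.0362) and with a pseudocount of 64 (adjusted p = 0.0455).

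C1qb, the gene of the B chain, had signals of 2.29, 39.6 and 327 in blood, 292, 266 and 45.7 in vitro, and 3949, 4277 and 3036 in FBR. The blood and in vitro ranges overlapped and the FBR arrays stood apart from both. The log2 fold change of FBR was 5.73 (SE 0.93, adjusted p = 0.00109) against blood and 4.41 (SE 0.93, adjusted p = 0.00766) against in vitro activated cells. The second of these did not pass with a pseudocount of 1 (4.59, adjusted p = 0.0629).

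C1qc, the gene of the C chain, had signals of 9.22, 111 and 398 in blood, 639, 364 and 109.8 in vitro, and 8351, 9949 and 6820 in FBR. Again blood and in vitro overlapped and FBR stood apart. C1qc showed the largest log2 fold change of the 8 genes in FBR against blood, 6.24 (SE 0.88, adjusted p = 0.000487), and rose by 4.72 against in vitro activated cells (SE 0.88, adjusted p = 0.00426). With all whole-number values left missing the second difference was 4.44 and did not pass (adjusted p = 0.0763).

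The in vitro activated cells showed no called change of any C1q gene against blood. The in vitro differences from blood were 2.71 for C1qa (95% interval 0.29 to 5.13, adjusted p = 0.099), 1.31 for C1qb (-0.76 to 3.38, adjusted p = 0.35) and 1.52 for C1qc (-0.44 to 3.48, adjusted p = 0.248). These intervals are wide and leave room for large changes. Blood replicate 3 carried the highest blood signal of each chain, and without it all 3 differences passed, at 3.69 (adjusted p = 0.0369), 2.46 (adjusted p = 0.0372) and 2.48 (adjusted p = 0.0489). Without in vitro replicate 3 the C1qa difference was 3.67 (adjusted p = 0.0364). The FBR differences from blood passed with any 1 array left out and ranged from 4.14 to 6.47 for C1qa, from 4.75 to 6.87 for C1qb and from 5.18 to 7.20 for C1qc, with the lower end in each case without blood replicate 1 and the upper end without blood replicate 3.

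**Figure D1:**
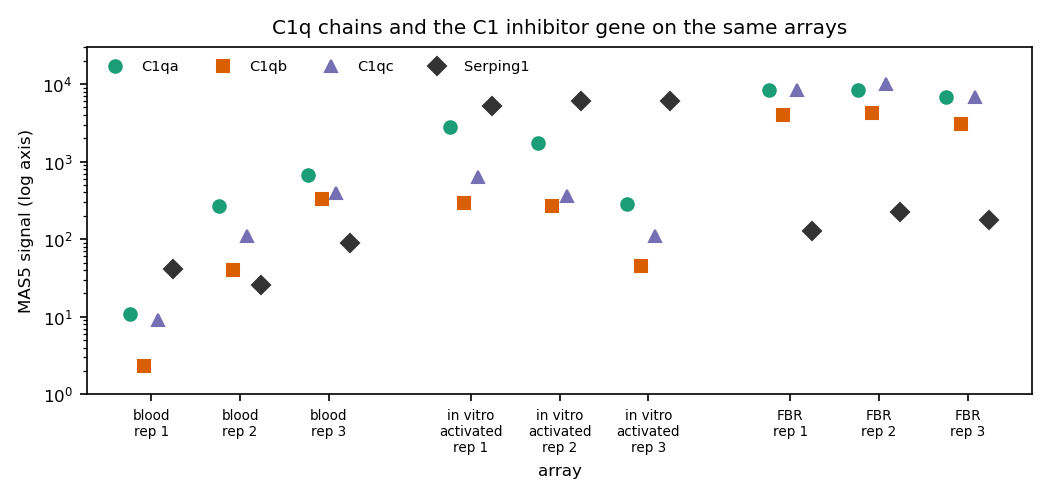
MAS5 signals (log axis) of C1qa, C1qb, C1qc and Serping1 on each of the 9 arrays, 1 symbol per gene and array, with no order among replicates. The C1q chains lay at 2.29 to 663 in blood and at 3036 to 9949 in FBR, whereas Serping1 was highest in the 3 in vitro arrays, at 5154 to 6069.

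The 3 chains also varied together among arrays of the same group. Blood replicate 1 was the lowest and blood replicate 3 the highest blood array for each chain, and in vitro replicate 3 was the lowest in vitro array for each. After subtraction of the group means, the log2 signals correlated at 0.94 for C1qa with C1qb, 0.98 for C1qa with C1qc and 0.97 for C1qb with C1qc over 9 arrays that share their RNA, their array and their scaling. Blood replicate 1, lowest in C1q, had the highest blood sum of macrophage markers, so the order of the blood arrays in C1q did not follow that sum. Among the macrophage markers, Cd163, a scavenger receptor of tissue macrophages, was listed at 1.16, 48.3 and 125 in blood, at 10.6, 5.57 and 31.3 in vitro, and at 6557, 12892 and 10837 in FBR. Cd163 thus had the same order of blood arrays as the C1q chains and, like C1qb and C1qc, was called higher in FBR than in both other groups (log2 fold change 7.50 against blood, adjusted p = 2.9e-05, and 8.34 against in vitro, adjusted p = 4.6e-05). It was the exception on its list: of the 8 macrophage markers, 1 was called higher in FBR than in vitro and 7 were not called. Cd68, Csf1r, Adgre1 and Fcgr1a had another order in blood, lowest in replicate 2 and highest in replicate 1.

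C3, the central protein that all complement pathways cleave, showed no called difference in any comparison. Its signal was 3625, 520 and 2998 in blood, 1129, 1912 and 505 in vitro, and 1706, 9459 and 7687 in FBR. In each group 1 array lay well below the others, and FBR replicate 1 lay within the blood and in vitro ranges. The log2 fold change was -0.78 for in vitro against blood (SE 0.84, adjusted p = 0.546), 1.47 for FBR against blood (95% interval -0.38 to 3.33, adjusted p = 0.224) and 2.26 between FBR and in vitro activated cells (0.40 to 4.11, adjusted p = 0.0792). The last one passed without FBR replicate 1 (3.03, adjusted p = 0.0329), without blood replicate 2 (2.26, adjusted p = 0.0412) and with array weights (2.30, adjusted p = 0.0391). FBR replicate 1, lowest in C3, had the highest fibroblast marker sum, 1249 against 315 and 409 in the other FBR arrays, and the part of such cells in the C3 signal was not tested. The summed signal of 4 hepatocyte markers was 112 to 298 over all 9 arrays.

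Cfp encodes properdin, which is made by neutrophils, monocytes and T cells. Its brighter probe set gave 1862, 221 and 1594 in blood, 101, 338 and 665 in vitro, and 3473, 3580 and 3548 in FBR. The FBR arrays lay within 3473 to 3580, above every array of the other groups, while blood and in vitro overlapped through blood replicate 2. FBR exceeded the in vitro activated cells by 3.54 on the log2 scale (SE 0.79, adjusted p = 0.0098). Against blood the difference of 1.99 (95% interval 0.24 to 3.74) did not pass (adjusted p = 0.0832), except after median centring (2.35, adjusted p = 0.039). The in vitro activated cells were at -1.55 against blood (SE 0.79, adjusted p = 0.186), and without blood replicate 2 this was -2.51 and passed (adjusted p = 0.0208).

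The dimmer Cfp probe set went another way. It gave 1106, 501 and 724 in blood, 350, 501 and 725 in vitro, and 498, 322 and 245 in FBR, so the FBR arrays were the lowest against blood and overlapped the in vitro arrays. None of its differences passed, at -0.54 for in vitro against blood (adjusted p = 0.353), -1.08 for FBR against blood (adjusted p = 0.0562) and -0.54 between FBR and in vitro activated cells (adjusted p = 0.346). The mean of both probe sets was 1.50 higher in FBR than in vitro and did not pass (adjusted p = 0.0717), so the Cfp call rests on 1 of 2 probe sets that disagree. The sum of 5 neutrophil markers moved in the same direction as the brighter probe set. It was 205 to 746 in vitro, 2259 to 3036 in FBR and 576 to 2199 in blood. Of the 5, 3 were called higher in FBR than in vitro, Csf3r, S100a8 and S100a9. Cxcr2 (0.53, adjusted p = 0.438) and Camp (1.03, adjusted p = 0.147) were not called. The part of neutrophil RNA in the Cfp signal was not tested.

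Serping1 encodes C1 inhibitor, the serpin that blocks C1r and C1s and also acts on kallikrein and factor XII. Its signal was 41.4, 25.5 and 88.7 in blood, 5154, 6061 and 6069 in vitro, and 128, 226 and 178 in FBR. The 3 groups did not overlap anywhere, with blood lowest, FBR in the middle and the in vitro activated cells far above both. Serping1 rose by 6.52 in vitro against blood (SE 0.35, adjusted p = 1.09e-05), the largest change of the 8 genes in that comparison. It was lower in FBR than in vitro (log2 fold change -4.93, SE 0.35, adjusted p = 2.6e-05), the only decrease called among them. FBR was still 1.59 above blood (SE 0.35, adjusted p = 0.00586). The study listed Serping1 among genes it picked on these same arrays, so this is not independent evidence. With any 1 array left out, the 3 differences lay between 6.21 and 6.88, between -5.11 and -4.73 and between 1.29 and 1.95, and all passed. Fibroblasts also make C1 inhibitor, and the summed signal of 6 fibroblast markers was 120 to 155 in blood, 143 to 430 in vitro and 315 to 1249 in FBR. Of 7 such markers, 1 was called higher in vitro than in blood, Pdgfrb (1.32, adjusted p = 0.0316). The other Pdgfrb probe sets gave -0.65 and 0.52 and were not called. In FBR against blood 3 were called higher, Col1a1 (1.07), Col1a2 (2.34) and Col3a1 (1.86). Between FBR and in vitro 0 were called in either direction on their brightest probe sets. The dimmer Col1a1 probe set was called higher in FBR than in vitro (1.47, adjusted p = 0.0402), at mean signals of 53.1 and 6.58 with overlapping arrays. The part of fibroblast RNA in the Serping1 signal was not tested.

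**Figure D2:**
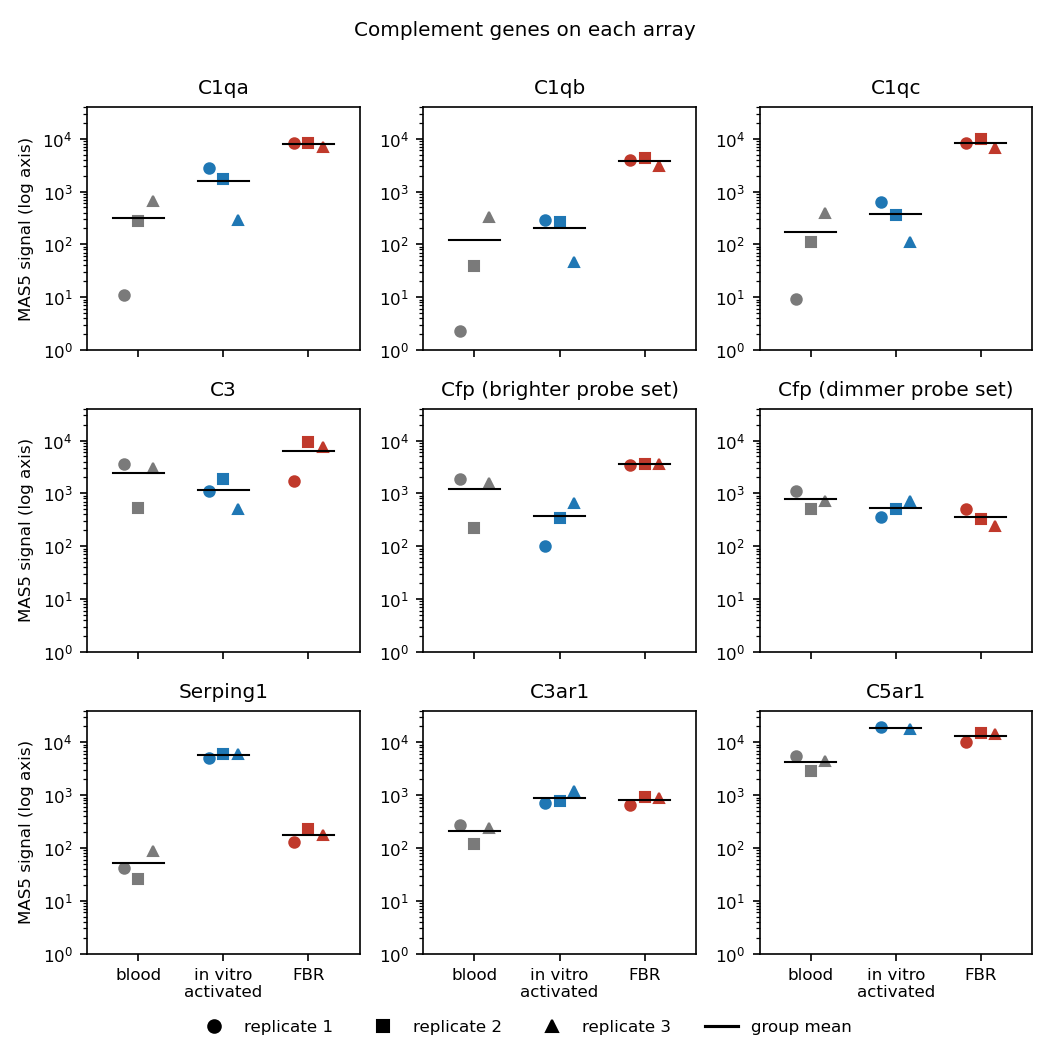
MAS5 signal (log axis) of each probe set of the complement genes, 1 point per array and a bar at the group mean, for blood, in vitro activated and FBR CD68+ cells. The C1q genes and the brighter Cfp probe set were highest in FBR, Serping1 was highest in vitro, and both peptide receptors were lowest in blood.

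The receptors of the C3a and C5a peptides were higher than blood in both activated groups. C3ar1 encodes the G protein-coupled receptor of C3a. Its signal was 274, 116 and 237 in blood, 703, 778 and 1191 in vitro, and 664, 913 and 880 in FBR. All blood arrays lay below all others, and the in vitro and FBR ranges overlapped. C3ar1 rose by 2.05 in vitro (SE 0.34, adjusted p = 0.00182) and by 1.95 in FBR (SE 0.34, adjusted p = 0.00165) against blood. FBR and in vitro differed by -0.09 (95% interval -0.85 to 0.67, adjusted p = 0.871), an interval that holds changes of either sign.

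C5ar1 encodes the receptor of C5a, a strong attractant of neutrophils and monocytes. Its signal was 5398, 2871 and 4493 in blood, 19936 and 17713 in vitro replicates 1 and 3, and 10239, 14873 and 14459 in FBR. The value of in vitro replicate 2 is missing, because its deposited cell of 15989 may stand for that signal or for 15.989. The groups did not overlap, with blood lowest and in vitro highest. C5ar1 rose by 2.19 in vitro (SE 0.34, n = 2 arrays in vitro, adjusted p = 0.00159 by limma) and by 1.66 in FBR (SE 0.30, adjusted p = 0.00269) against blood. The difference of FBR from in vitro was -0.53 (95% interval -1.29 to 0.23, adjusted p = 0.298) and did not pass. Read as 15989, the cell gave 2.11 for in vitro against blood (adjusted p = 0.00061), and read as 15.989 it gave -0.88 (adjusted p = 0.788) and also ended the FBR call against blood (1.66, adjusted p = 0.585). Both readings were added after the values had been seen.

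The marker sum of monocytes and macrophages was lowest in blood replicate 2, where C3ar1 and C5ar1 were also at their lowest. The sum was 47913 to 60484 in vitro and 61052 to 76147 in FBR. It includes Cd163, which was at 5.57 to 31.3 in vitro and at 6557 to 12892 in FBR. Of the 8 macrophage markers, 7 were not called between these 2 groups, so the sum mostly sets them apart through Cd163. Neither receptor was called higher in FBR than in vitro, and the C5ar1 signals were lower in FBR. Cd68, the antigen used for the selection, was itself 2.08 higher in vitro (adjusted p = 0.00436) and 1.62 higher in FBR (adjusted p = 0.0116) than in blood. Without blood replicate 2 and with every other array left out in turn, C3ar1 kept its calls against blood. It lay between 1.71 and 2.27 in vitro and between 1.61 and 2.18 in FBR. C5ar1 kept its call in FBR against blood, between 1.40 and 1.85. In vitro C5ar1 lay between 1.93 and 2.38 against blood. As in vitro replicate 2 has no C5ar1 value, leaving out in vitro replicate 1 or 3 left only the other array in that group.

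Counted together, 3 of the 8 genes were called higher in vitro than in blood (Serping1, C3ar1 and C5ar1) and 0 lower, where 15.4% of all 14218 genes were called higher and 12.2% lower. For FBR against blood 6 genes were called higher (C1qa, C1qb, C1qc, Serping1, C3ar1 and C5ar1) and 0 lower, against 14.6% and 19.2% of all genes. For FBR against in vitro 3 were called higher (C1qb, C1qc and Cfp) and 1 lower (Serping1), against 8.88% and 16.7% of all genes. Their median log2 fold changes were 1.79, 1.97 and 2.52, beside medians of 0.13, -0.09 and -0.23 over all genes. The comparisons share arrays, and the 3 chains of C1q are neighbouring genes that varied together, so these counts are not counts of independent events. The list had been chosen with results of these arrays known.

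**Figure D3:**
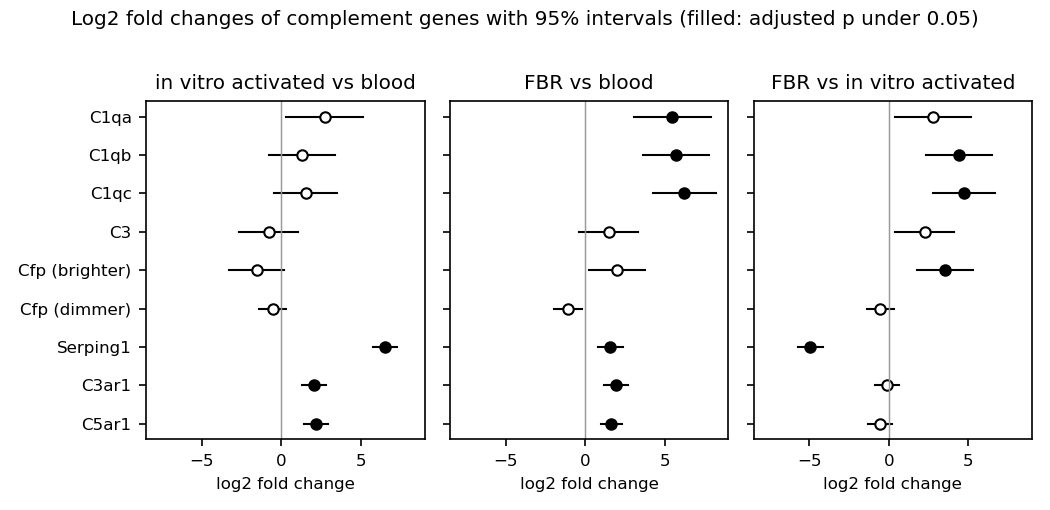
Log2 fold changes of the complement genes (points, with 95% intervals as bars) in the 3 comparisons, filled where the adjusted p was under 0.05. The C1q genes reached 5.49 to 6.24 in FBR against blood, and Serping1 stood at 6.52 in vitro against blood and at -4.93 in FBR against in vitro.

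Of 42 other genes of the complement system, 32 were read from a probe set with 1 symbol, and 10 were not read, C2, C4a, C4b and C7 among them. Of these 32, 5 were called higher and 6 lower in vitro than in blood, against 15.4% and 12.2% of all genes. In FBR against blood 10 were called higher and 5 lower, against 14.6% and 19.2% of all genes. Between FBR and in vitro 5 were called higher and 1 lower, against 8.88% and 16.7%. The medians were 0.16, 0.06 and -0.05, beside 0.13, -0.09 and -0.23 over all genes. They include genes of low signal, such as C8a, C4bpa and Vtn, whose group means were all under 16. Genes were called in both directions in each comparison.

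Of the proteases that C1q and C1 inhibitor act with, C1r was at 245, 106 and 121 in blood, 99.3, 107 and 120 in vitro, and 567, 1130 and 845 in FBR, and the FBR arrays stood above all others. C1r rose by 2.35 in FBR against blood (adjusted p = 0.00061) and by 2.74 against in vitro (adjusted p = 0.000562). C1s, named here beside its partner after its values had been seen, was at 10.1 to 18.6 in blood, 6.03, 39.3 and 174 in vitro, and 133 to 189 in FBR, with a called rise in FBR against blood of 2.50 (SE 0.61, adjusted p = 0.0102). C1r was thus highest in FBR, and Serping1 in vitro. FBR replicate 1, with the highest fibroblast marker sum, was the lowest FBR array for C1r and the highest for C1s.

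In the alternative pathway Cfd, the gene of factor D, which cleaves factor B, had the largest increase of the wider list in both comparisons of FBR. Its signal was 756, 281 and 597 in blood, 336, 425 and 221 in vitro, and 10970, 10261 and 7763 in FBR. The FBR arrays lay far above the rest, and blood and in vitro overlapped. Cfd rose by 4.20 against blood (adjusted p = 3.6e-05) and by 4.85 against in vitro (adjusted p = 4.6e-05). It shared with the brighter Cfp probe set a rise from in vitro to FBR without a called change from blood to in vitro. The dimmer Cfp probe set did not show this rise (-0.54, not called). C1qb, C1qc, C1r and Cd55 had the same calls, so they were not particular to the alternative pathway.

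The lectin pathway genes did not move together. Fcna, the gene of ficolin A, a pattern-binding lectin of macrophages in mice, was at 1225, 575 and 1334 in blood, 427, 381 and 176 in vitro, and 7520, 5527 and 5130 in FBR. Its 3 groups did not overlap, and it fell by 1.62 in vitro against blood (adjusted p = 0.015) and rose by 2.59 in FBR (adjusted p = 0.000868), with 4.21 between FBR and in vitro (adjusted p = 0.000129). Fcnb, the gene of the related ficolin B, was at 15530, 2794 and 14188 in blood, 49.4, 731 and 2738 in vitro, and 928, 178 and 234 in FBR, and was lower in both than in blood (-4.06, adjusted p = 0.0335, and -4.58, adjusted p = 0.0154). Masp2, the protease of the lectin pathway, was also lower in both on its brightest probe set (-2.40, adjusted p = 0.000233, and -1.96, adjusted p = 0.000502). Another of its 3 probe sets was called higher in FBR, at 0.89 (adjusted p = 0.0474), so the Masp2 probe sets disagree.

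Among the terminal components C6, part of the membrane attack complex, was at 8.33, 45.2 and 146 in blood, 200, 393 and 134 in vitro, and 641, 605 and 503 in FBR. It was called higher than blood in vitro (1.93, adjusted p = 0.0391) and in FBR (3.26, adjusted p = 0.00218).

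The regulators on the cell surface differed from each other. Cd55, decay-accelerating factor, which takes apart the enzymes that cleave C3, was at 1975, 1645 and 2414 in blood, 1324, 1315 and 245 in vitro, and 7715, 8595 and 7957 in FBR. Its FBR arrays stood above the others by a wide margin, and it rose by 2.02 against blood (adjusted p = 0.0165) and by 3.39 against in vitro (adjusted p = 0.00194), with a second probe set called in the same direction in both. Cd46, a cofactor for the breakdown of C3b, was at 17.1 to 142 on all 9 arrays and was lower than blood in vitro (-1.30, adjusted p = 0.0254) and in FBR (-1.24, adjusted p = 0.0255).

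Of the receptors for C3 fragments, Cr2, complement receptor 2 of B cells and follicular dendritic cells, had signals of 6894, 11392 and 9026 in blood, 13.4, 135 and 332 in vitro, and 26, 4.14 and 7.25 in FBR. Its fold changes against blood were -6.27 in vitro (adjusted p = 0.000231) and -8.37 in FBR (adjusted p = 2.8e-05). Cr2 is itself on the B cell marker list, where 5 of 5 genes were called lower than blood in both groups. Between FBR and in vitro 3 of the other 4 Cr2 probe sets were called lower (-1.50, -1.41 and -1.43), while the brightest was not (-2.10, adjusted p = 0.0635).

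The integrin chains of complement receptors 3 and 4 differed in where they were called higher than in blood. Itgam, the alpha chain of receptor 3, was at 733, 312 and 1588 in blood and at 2803, 3040 and 2926 in FBR. The 2 in vitro arrays with a value gave 1552 and 2660. Itgam was called higher in FBR against blood (2.00, adjusted p = 0.0144) but not in vitro (1.48, adjusted p = 0.0898). FBR and in vitro themselves differed by 0.52 in Itgam (95% interval -0.76 to 1.80, adjusted p = 0.559), which was not called. Itgax, the alpha chain of receptor 4, was highest in vitro, at 12816, 15126 and 14386, against 1447 to 5746 in blood and 3581 to 5127 in FBR. Itgax rose by 2.24 in vitro against blood (adjusted p = 0.00386), while its difference of 0.44 in FBR against blood did not pass (adjusted p = 0.494). It was the 1 gene of the wider list called lower in FBR than in vitro (-1.80, adjusted p = 0.0136). Itgb2, the beta chain that both receptors share and that FG also engages, was called higher in vitro (1.34, adjusted p = 0.00952) and in FBR (0.91, adjusted p = 0.045) than in blood.

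Of other proteins that have been described to bind C1q, Cd93 and Calr were called higher in FBR than in blood and C1qbp was not. Cd93, once proposed as a C1q receptor, was at 1045, 241 and 954 in blood, 1013, 2254 and 7686 in vitro, and 5892, 3860 and 3536 in FBR, with a called rise in FBR against blood of 2.75 (adjusted p = 0.014) on its brighter probe set and none on the other (0.53, adjusted p = 0.186). Calr, the gene of the chaperone calreticulin, was 1.14 higher in vitro (adjusted p = 0.0086) and 1.93 higher in FBR (adjusted p = 0.000321) than in blood, and its 3 groups did not overlap. C1qbp, named here after its values had been seen, encodes a mostly mitochondrial protein that binds C1q. It was 1.03 higher in vitro than in blood (adjusted p = 0.0163), and its differences of 0.66 in FBR against blood (adjusted p = 0.0846) and -0.37 in FBR against in vitro (adjusted p = 0.346) did not pass.

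**Figure D4:**
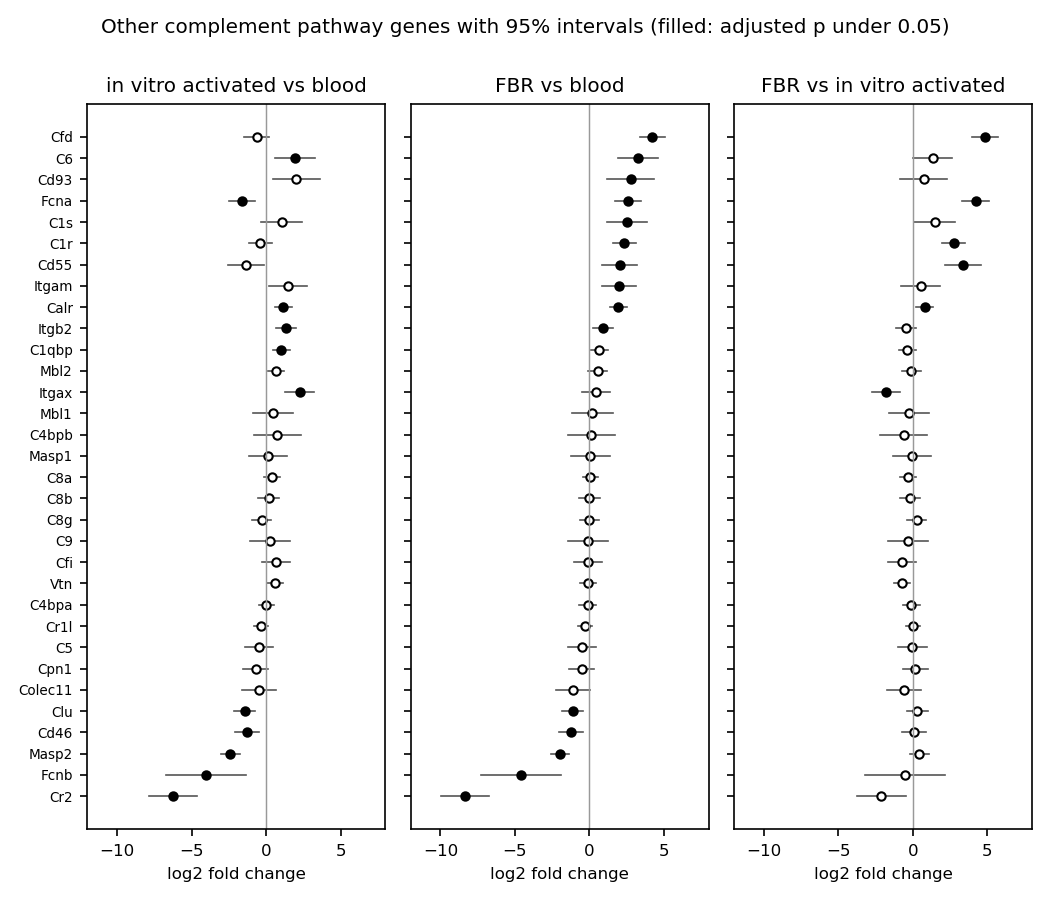
Log2 fold changes of the 32 other complement genes (points, with 95% intervals as bars), 1 panel per comparison, filled where the adjusted p was under 0.05. Cfd, Fcna, Cd55 and C1r stood highest in FBR against in vitro, at 4.85, 4.21, 3.39 and 2.74, and Cr2 stood lowest in both comparisons with blood.

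Genes outside the list whose log2 signal followed that of each complement gene most closely were searched among 8223 genes measured on all 9 arrays with a mean signal of at least 100. C1qb and C1qc had Plk2, a kinase, in common, at a correlation of 0.977 and 0.975, beside Ccl7, a monocyte chemokine, for C1qb (0.973) and Epb41l1 for C1qc (0.98). C1qa was nearest to Abtb2 (0.963) and Cnpy4 (0.961). C3 was nearest to Filip1l (0.944) and Nod1, a sensor of bacterial cell walls (0.935), and Cfp to Rbm22 (0.969) and Fkbp8 (0.967). C3ar1 was nearest to Ptafr, the receptor of platelet-activating factor (0.993), and Hsd17b11 (0.992). C5ar1 was nearest over its 8 arrays to Ccr1, a chemokine receptor (0.995), and Atp1b3 (0.992), and Serping1 to Slc29a3 (0.991) and Limch1 (0.987). The points share 3 groups of arrays, and the correlations are given as a description.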

How the data were processed

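For 9 arrays, hybridised with RNA amplified in 2 rounds, the deposited values are MAS5 intensity values (linear scale). The processing tools that the submitters name are MAS5 and RMA. Among 279891 cells, 15.45% were whole numbers with 6 or 7 digits that lacked their decimal point and were divided by 1000. Dates made up 0.07% and were turned back into signals. A further 1.04% could be read in more than 1 way and were set to missing. The authors also deposited tables of their own RMA comparisons (log2 fold changes and adjusted p values), which were not used. Detection calls were not used here, and low signals have no lower limit of detection attached to them. Precision is limited by the number of arrays.

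Of the probe sets 20832 carry 1 symbol, 436 several and 9831 none. Of those with 1 symbol, 20764 were matched to RefSeq by Entrez ID, and 0 symbols differed. The brightest probe set (by mean signal) stood for a gene. Log2(signal + 16) was fitted with limma 3.58.1 (lmFit and eBayes) in R 4.3.3, with 3 group means, no block and 6 residual degrees of freedom, and the scripts were tested on simulated data. Tables and figures were made with Python 3.11.15, numpy 2.4.6, pandas 2.3.3 and matplotlib 3.10.9.

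The complement genes, the wider list and the marker lists were chosen with earlier results of these data known. Of the wider list, the 4 largest called increases and decreases of each comparison are named, with Cr2, Itgam, Itgb2 and Cd55 (and Vsig4, which was not read), and for each complement gene the 2 most correlated genes. The alternatives were pseudocounts of 1 and 64, a filter keeping probe sets whose highest signal was at least 100, quantile normalization and median centring. Others were a fit of 6 arrays at a time, trend and robust estimation in eBayes, weights per array and the replicate number as a block. The last were whole numbers set to missing, averaged probe sets, and leaving out each array.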

Additional observations from a re-analysis of the deposited data

How the results depend on the processing

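Of 472 fold changes of the complement genes under the other settings, 450 kept their direction and their side of the threshold, 13 newly passed, 3 no longer passed and 6 changed sign. The sign changes were of differences that were not called: C3ar1 in FBR against in vitro became 0.25 with median centring, 0.045 with array weights and 0.13 with whole numbers left missing, and ranged from -0.24 to 0.13 with each array left out, above 0 without in vitro replicate 3 (0.13) and without FBR replicate 1 (0.05), and Cfp in vitro against blood became 0.36 with whole numbers left missing. With the ambiguous C5ar1 cell divided, its difference was -0.88 for in vitro against blood and 2.54 for FBR against in vitro. Leaving whole numbers missing removes the 15.45% of values that had lost their decimal point, and with them arrays: the complement genes called higher then fell to 1 in vitro against blood and to 1 in FBR against in vitro, those called lower in FBR against in vitro to 0, and the wider list to 0 higher in vitro against blood, 4 higher in FBR against blood, and 2 higher and 0 lower in FBR against in vitro. The wider list's 1 gene lower in FBR against in vitro became 2 with a pseudocount of 1, with the filter on low signals and with trend and robust options, and 3 with array weights and with the mean of all probe sets. Its 5 genes lower in FBR against blood became 3 with median centring. Array weights called 1 complement gene lower in vitro against blood, Cfp (-2.31, adjusted p = 0.0236). The cause was not tested. With each array left out in turn, the complement genes called in vitro against blood numbered 3 to 6 higher, with the 6 without blood replicate 3, and 0 to 1 lower. The wider list numbered 4 to 6 higher and 3 to 6 lower in vitro against blood, with the 3 without blood replicate 3, and 7 to 10 higher and 2 to 6 lower in FBR against blood, with the 2 without blood replicate 3, FBR replicate 2 or FBR replicate 3. It numbered 4 to 6 higher and 0 to 2 lower in FBR against in vitro, with 2 without in vitro replicate 1 and 0 without FBR replicate 2 or 3. For FBR against in vitro the complement genes numbered 3 to 4 higher and 1 lower. For FBR against blood they numbered 6 higher and 0 lower with each array left out and under the other settings, except 7 higher with median centring and 5 higher with whole numbers left missing.

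The labels do not say whether equal replicate numbers pair the arrays. The deviations of equal-numbered arrays correlated at -0.065 to 0.069, and 1 of 9 arrays was closest to its own number in both other groups. With so few arrays a group, these values do not settle whether equal numbers share a rat or a day. With the replicate number as a block, 7217, 9184 and 6412 probe sets were called in place of 7722, 9621 and 6992, the complement genes called higher numbered 3, 6 and 3, and no fold change of theirs changed its call.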
